A study of Mus musculus with 8 samples.

Results

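The genes described here are 34 genes of glycolysis, lactate transport and the response to low oxygen, out of 24369 genes in the deposited count table. They were taken as a fixed list and read in 3 blocks: 14 glycolytic enzymes, 5 sugar and lactate transporters, and 15 genes of oxygen sensing and targets of the hypoxia-inducible factor (HIF). The list was chosen with earlier results of these data known. The phosphofructokinase genes were left out of the list. All 34 were in the table, and 32 had enough reads to be tested; the glucose transporter gene Slc2a3 and the adrenomedullin gene Adm did not.

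RNA was sequenced from conventional dendritic cells (cDC) sorted by flow cytometry from MC38-EGFP tumours in mice of wild-type (WT) genotype. MC38 is a mouse colon carcinoma line, here carrying the green fluorescent protein EGFP, and the cell type field of the labels names colon cancer. The 4 groups were cDC1 without (EGFP-negative) and with (EGFP-positive) the EGFP signal and the same fractions of cDC2, with 2 libraries each. All came from the same kind of tumour and host, the labels give no age, and they name no drug for any library. cDC1 are best known for presenting dead-cell antigen to CD8 T cells and cDC2 for priming CD4 T cells, and EGFP signal in a sorted cell comes from the tumour line. The labels do not say whether the 2 libraries of a group came from separate animals, so p-values measure only the spread between these libraries, which may be technical.

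Glycolysis turns glucose into pyruvate, and when oxygen is short or demand is high, lactate dehydrogenase turns pyruvate into lactate, which monocarboxylate transporters carry out of the cell. HIF is held low in oxygen by prolyl hydroxylases of the EGLN family; when these slow down, HIF raises the genes of sugar uptake, of nearly every glycolytic step and of lactate export, as well as its own hydroxylases, Vegfa and the mitophagy receptors Bnip3 and Bnip3l. Glycolysis is also raised in dendritic cells and macrophages by inflammatory signals without a lack of oxygen.

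HIF binds DNA at a short core, written here as ACGTG or GCGTG, and RefSeq promoter windows of the GRCm38.p6 build were read for these letters on both strands (CACGT and CACGC on the other strand; in CACGTG the core is present on both). A window held the 250 bases before the most 5′ start of the gene, and 31 of the 34 genes had one; Slc2a3, Bnip3l and Ndrg1 did not. At least 1 of the cores was in 24 of 31 windows (77.4%), against 10442 of 27025 promoters of the same length (38.6%). The members' windows were also richer in G and C, with a median of 64% against 52%. By block the cores were in 9 of 14 enzyme windows, 4 of 4 transporter windows and 11 of 13 windows of HIF genes. The 5 windows below were chosen after the values were seen: Slc16a3 and Vegfa passed the test between EGFP-negative subsets, Bnip3 and P4ha1 were low in EGFP-negative cDC1 alone, and the order of the groups for Hk2 was that of no other enzyme. Capitals mark the cores.
Slc16a3, chr11:120948817-120949066, plus strand: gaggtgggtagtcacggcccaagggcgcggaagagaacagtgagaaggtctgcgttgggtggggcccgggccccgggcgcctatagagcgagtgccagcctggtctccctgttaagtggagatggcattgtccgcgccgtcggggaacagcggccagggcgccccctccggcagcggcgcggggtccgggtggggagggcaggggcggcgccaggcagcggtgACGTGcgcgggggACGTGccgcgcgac
Bnip3, chr7:138909507-138909756, minus strand: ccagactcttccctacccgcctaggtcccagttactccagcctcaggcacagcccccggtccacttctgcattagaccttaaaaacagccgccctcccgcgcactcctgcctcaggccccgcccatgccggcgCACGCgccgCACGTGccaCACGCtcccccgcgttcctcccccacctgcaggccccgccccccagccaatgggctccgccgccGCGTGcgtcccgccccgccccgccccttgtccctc
P4ha1, chr10:59323046-59323295, plus strand: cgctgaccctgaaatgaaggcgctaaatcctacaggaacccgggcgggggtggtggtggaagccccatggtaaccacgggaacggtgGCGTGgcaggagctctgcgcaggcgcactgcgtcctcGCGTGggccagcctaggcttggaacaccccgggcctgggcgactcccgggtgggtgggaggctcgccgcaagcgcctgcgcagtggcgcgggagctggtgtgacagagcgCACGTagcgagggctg
Hk2, chr6:82774455-82774704, minus strand: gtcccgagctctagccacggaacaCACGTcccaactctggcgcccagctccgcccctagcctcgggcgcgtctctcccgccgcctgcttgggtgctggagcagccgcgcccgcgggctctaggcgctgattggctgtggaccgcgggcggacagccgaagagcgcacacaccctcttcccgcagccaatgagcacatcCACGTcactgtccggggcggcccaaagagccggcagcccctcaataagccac
Vegfa, chr17:46032378-46032627, minus strand: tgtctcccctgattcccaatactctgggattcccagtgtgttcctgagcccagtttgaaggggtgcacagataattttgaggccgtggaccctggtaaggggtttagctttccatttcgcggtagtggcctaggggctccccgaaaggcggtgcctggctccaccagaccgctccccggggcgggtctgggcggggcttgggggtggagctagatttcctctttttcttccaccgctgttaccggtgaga
The windows of the lactate exporter gene Slc16a3, of Bnip3, of the collagen prolyl hydroxylase gene P4ha1 and of the hexokinase gene Hk2 held 2, 5, 3 and 2 cores. That of Vegfa held 0, as did those of Hk1, Gpi1, Aldoa, Tpi1, Pkm and Mif. This says only that the letters were not in these 250 bases. In the windows of Pkm, Aldoa, Gpi1 and Tpi1, 208, 193, 167 and 138 bases lay in annotated exons of any gene on either strand. Those of Vegfa, Hk1 and Mif had 0 such bases.

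Library totals were 17869441 to 22195681 reads, of which 19.4% to 35.6% fell on the ribosomal precursor Rn45s. Levels are given as CPM, counts relative to library size, after TMM scaling, which corrects for differences in composition between libraries; 3 reads in a library corresponded to 0.131 to 0.211 CPM. The replicates of EGFP-positive cDC1 agreed least: Pearson's r across 11394 genes was 0.629, against 0.85 to 0.898 in the other groups. Replicate 2 of that group held 11111 CPM of 8 mature regulatory dendritic cell markers such as Ccr7 and Il12b, against 218 to 853 CPM in the other 7 libraries. Its 18 macrophage and monocyte markers summed to 13678 CPM, against 523 CPM in replicate 1, which in turn had the stromal gene Sparc at 674 CPM and the mesothelin gene Msln, of the tumour marker list, at 136 CPM. Over the 10 fibroblast and stroma markers, the sum was 811 and 254 CPM in EGFP-positive cDC1 and 11.2 and 18.1 CPM in EGFP-negative cDC1. In cDC2 this sum was 256 and 1036 CPM without EGFP and 543 and 836 CPM with it. The 12 cDC1 markers summed to 3875 to 8508 CPM in cDC1 libraries and 458 to 1092 CPM in cDC2 libraries. For the 10 cDC2 markers the sums were 895 to 1012 CPM in cDC2 libraries and 192 to 396 CPM in cDC1 libraries. The cDC2 libraries held little of the dendritic cell genes Flt3 (0 to 10.8 CPM) and Zbtb46 (0 to 1.04 CPM). These belong to a list of 8 shared cDC markers. That list summed to 10021 to 25586 CPM in cDC2 libraries and 33572 to 50428.5 CPM in cDC1 libraries. Macrophage markers summed to 28737 to 57924 CPM in cDC2 libraries. Of 11 neutrophil markers in the table, S100a9, Retnlg, Ngp and Stfa2l1 were at 0 in all libraries, while Csf3r reached 25.5 CPM, S100a8 17.9 CPM and Mmp8 15.4 CPM. Of 10 markers of the tumour line and colon epithelium, Krt8, Krt20, Cldn4 and Lgals4 were at 0, while besides Msln, Cdh1 reached 49.3 CPM, Krt18 10.5 CPM and Epcam 9.69 CPM. In such bulk samples, fewer cells of a type and less RNA per cell cannot be told apart.

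The glycolytic enzyme block was lowest in EGFP-negative cDC1 and highest in EGFP-negative cDC2, with the 2 EGFP-positive groups between them. Summed over the 14 enzymes, EGFP-negative cDC1 held 4713 and 5652 CPM, EGFP-positive cDC1 11731 and 14168 CPM, EGFP-negative cDC2 17271 and 16081 CPM, and EGFP-positive cDC2 10684 and 8806 CPM. No 2 groups overlapped. The 5 transporters had nearly the same order: 86.9 and 103 CPM, 614 and 507 CPM, 579 and 635 CPM, and 336 and 296 CPM in the same sequence of groups, with the 2 middle groups of this sequence overlapping. The HIF block was low in EGFP-negative cDC1 alone, at 791 and 582 CPM, and the other 3 groups overlapped, at 1759 and 1378 CPM, 1581 and 1835 CPM, and 1707 and 1806 CPM. These sums are ruled by the most abundant genes of each block, so single genes are given in turn. Per kilobase of exon, Gapdh, Ldha and Aldoa had the highest mean levels over the 8 libraries, at 778, 584 and 575 CPM per kilobase.

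**Figure D1:**
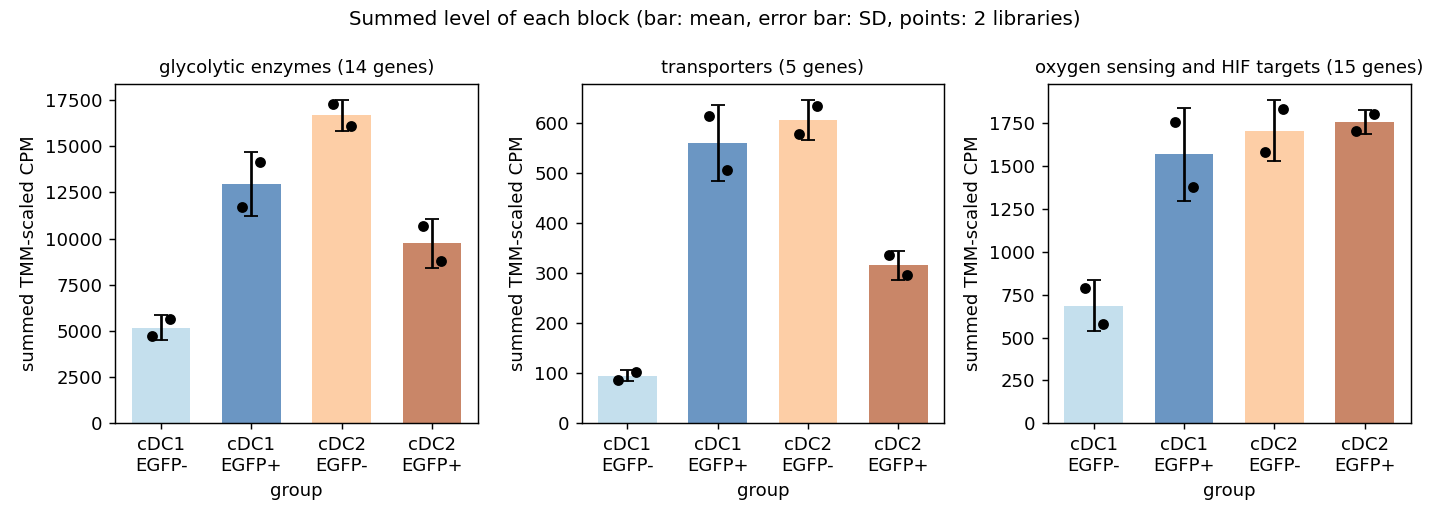
Summed TMM-scaled CPM of the 14 enzymes, the 5 transporters and the 15 oxygen sensing and HIF target genes in each group (bar: mean of 2 libraries, error bar: SD, points: libraries). The enzyme sum runs from 4713 CPM in an EGFP-negative cDC1 library to 17271 CPM in an EGFP-negative cDC2 library, while the HIF sums of 3 groups overlap.

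In EGFP-negative cells, 4 of the 32 tested members passed the test between subsets, all lower in cDC1: the enzyme genes Tpi1 and Pkm, Slc16a3 and Vegfa (edgeR's quasi-likelihood test, Benjamini-Hochberg adjusted over all genes). None was higher. Over all 11394 genes tested, 0.360% passed in this comparison, 0.246% as lower and 0.114% as higher in cDC1. The members' median log2 fold change was −2.24, against −0.04 over all genes, and 30 of 32 were below 0; it was −1.86 for enzymes, −2.16 for transporters and −3.22 for HIF genes. With members at 0 reads in a group set to a floor of 3 reads, the median of all 32 was again −2.24. Both EGFP-negative cDC1 libraries were below both EGFP-negative cDC2 libraries for 28 of 32 members (87.5%), against 26.5% of all genes, and above them for 1, the pyruvate dehydrogenase kinase gene Pdk3, against 21.9%. Members differed less between replicates than all tested genes. The median absolute log2 difference was 0.355 against 0.616 in EGFP-negative cDC1 and 0.314 against 0.52 in EGFP-negative cDC2. The same held in both EGFP-positive groups. Such shares of all genes, here and below, were not matched for this. In the same comparison the macrophage markers summed to 2469 and 3649 CPM in cDC1 against 57924 and 47709 CPM in cDC2, and 16 of 18 were lower in both cDC1 libraries without overlap; their part in the members' difference was not tested.

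Of the enzymes, Tpi1, triose phosphate isomerase, stood at 152 and 209 CPM in EGFP-negative cDC1 and at 957 and 948 CPM in EGFP-negative cDC2. Its EGFP-positive libraries lay between, at 636 and 928 CPM in cDC1 and 594 and 540.4 CPM in cDC2. The 2 EGFP-negative groups were thus the lowest and the highest, with no overlap, and differed by a log2 fold change of −2.40 ± 0.32 (SE; edgeR adjusted p = 0.0439). Pkm, pyruvate kinase, which makes pyruvate and ATP in the last step, stood at 758 and 938 CPM in EGFP-negative cDC1 and 2505 and 3431 CPM in EGFP-positive cDC1. In cDC2 it was at 3829 and 3356 CPM without EGFP and 1841 and 1558 CPM with it. EGFP-positive cDC1 overlapped EGFP-negative cDC2 here, and the remaining groups were apart; the difference between EGFP-negative subsets was −2.08 ± 0.30 (edgeR adjusted p = 0.0468). For these genes, as for Slc16a3 and Vegfa, the call was lost when any 1 of the 4 compared libraries was left out, with edgeR adjusted p reaching 0.284 for Tpi1 and 0.345 for Pkm. It was also lost without robust estimation, at 0.0617 to 0.0884 over the 4 genes. In GRCm38, Tpi1 lies at chr6:124810586-124814296 and Pkm at chr9:59656368-59679375, with Slc16a3 at chr11:120948480-120960868 and Vegfa at chr17:46016993-46032369, over all exons and introns. The RefSeq starts before which the windows of Tpi1, Pkm and Slc16a3 were read lie inside these spans, and that of Vegfa does not.

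Gapdh and Aldoa, also among the most abundant enzyme genes, had the group order of Tpi1 without passing the test. Gapdh, glyceraldehyde phosphate dehydrogenase, was at 1344 and 1752 CPM in EGFP-negative cDC1, 2627 and 3716 CPM in EGFP-positive cDC1, 5408 and 4858 CPM in EGFP-negative cDC2, and 3346 and 2661 CPM in EGFP-positive cDC2. Aldoa, the main aldolase, was at 480.0 and 474 CPM, 1539 and 2423 CPM, 2697 and 2656 CPM, and 1969.9 and 1155 CPM in the same groups. In both genes EGFP-negative cDC1 was lowest and EGFP-negative cDC2 highest, with the EGFP-positive groups overlapping each other; between EGFP-negative subsets the log2 fold change was −1.73 ± 0.31 for Gapdh (edgeR adjusted p = 0.0927) and −2.49 ± 0.37 for Aldoa (edgeR adjusted p = 0.0531). Ldha, the lactate dehydrogenase subunit that favours lactate, departed from this order, at 1278 and 1492 CPM, 3272 and 2027 CPM, 2080.4 and 2192 CPM, and 1375 and 1753 CPM. Its EGFP-negative cDC1 libraries overlapped those of EGFP-positive cDC2, and its highest library was replicate 1 of EGFP-positive cDC1. The subset difference without EGFP was −0.63 ± 0.32 (edgeR adjusted p = 0.584), the smallest among enzymes with a mean over 100 CPM in both groups.

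The other enzymes of the middle and lower pathway were Gpi1, glucose phosphate isomerase, Pgk1, phosphoglycerate kinase, which makes the first ATP, and Pgam1, phosphoglycerate mutase. Group means without and with EGFP were 286 and 475 CPM in cDC1 and 628 and 349.7 CPM in cDC2 for Gpi1, 205 and 291 against 639.9 and 498 CPM for Pgk1, and 167 and 419 against 522 and 272 CPM for Pgam1. EGFP-negative cDC1 had the lowest mean of the 4 groups for each, and EGFP-negative cDC2 the highest. Gpi1 split the EGFP-positive cDC1 replicates, at 254 and 696 CPM. Pgk1 differed from the others in lying at 189 to 316 CPM in all 4 cDC1 libraries, with all 4 cDC2 libraries at 443 CPM or more; its pooled subset difference was −1.21 ± 0.27 (edgeR adjusted p = 0.0752). Eno1, enolase, cannot be read from this table: it stood at 0.233 to 1.71 CPM in all libraries and its near-identical copy Eno1b at 0.888 to 7.08 CPM, and how reads shared by such copies were counted is not given in the sources used here. Processed copies of Gapdh, Ldha and other enzyme genes make their absolute levels uncertain in the same way.

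Hexokinase, which traps glucose in the cell, differed between its forms. Hk1, the form of most tissues, was at 5.56 and 8.62 CPM in EGFP-negative cDC1, 33.2 and 46.7 CPM in EGFP-positive cDC1, 44.5 and 33.1 CPM in EGFP-negative cDC2, and 21.6 and 20.7 CPM in EGFP-positive cDC2. Hk2, the inducible form and a HIF target, was at 11.4 and 23.5 CPM, 7.22 and 5.83 CPM, 15.2 and 32.0 CPM, and 72.7 and 45.6 CPM in the same groups. The order of the groups for Hk2 was that of no other enzyme: EGFP-positive cDC1 was lowest and EGFP-positive cDC2 highest, and the EGFP-negative groups overlapped. Its log2 fold change with EGFP was −1.42 ± 0.70 in cDC1 (edgeR adjusted p = 0.41) and 1.32 ± 0.70 in cDC2 (edgeR adjusted p = 1), and between EGFP-positive subsets −3.18 ± 0.74 (edgeR adjusted p = 0.126). Per kilobase of exon, Hk3, the form of myeloid cells, made up 51.7% to 91.7% of the 3 genes' CPM, and Hk2 2.08% to 30.1%. Hk3 ranged from 20.1 to 317 CPM and was uneven within groups, at 20.1 and 149 CPM in EGFP-positive cDC1 and 178 and 56.4 CPM in EGFP-positive cDC2.

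Of the minor forms, Aldoc, the second aldolase, held 0.887% to 5.84% of aldolase CPM per kilobase, with group means of 33.0 and 68.8 CPM in cDC1 and 70.7 and 21.8 CPM in cDC2, without and with EGFP. Ldhb, the lactate dehydrogenase subunit that favours pyruvate, was at 0 in 4 libraries, among them both of EGFP-negative cDC1, and at 8.15 to 26.9 CPM in the other 4. Ldha therefore held at least 97.2% of lactate dehydrogenase CPM per kilobase in every library. Against a floor of 3 reads over the group, Ldhb was at least 251-fold lower in cDC1 than in cDC2 among EGFP-negative cells, with 683 reads in the latter (edgeR adjusted p = 0.534). This floor does not cover the spread between replicates. Ldhb had 0 and 355 reads in the replicates of EGFP-positive cDC1 and 362 and 0 reads in those of EGFP-positive cDC2.

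**Figure D2:**
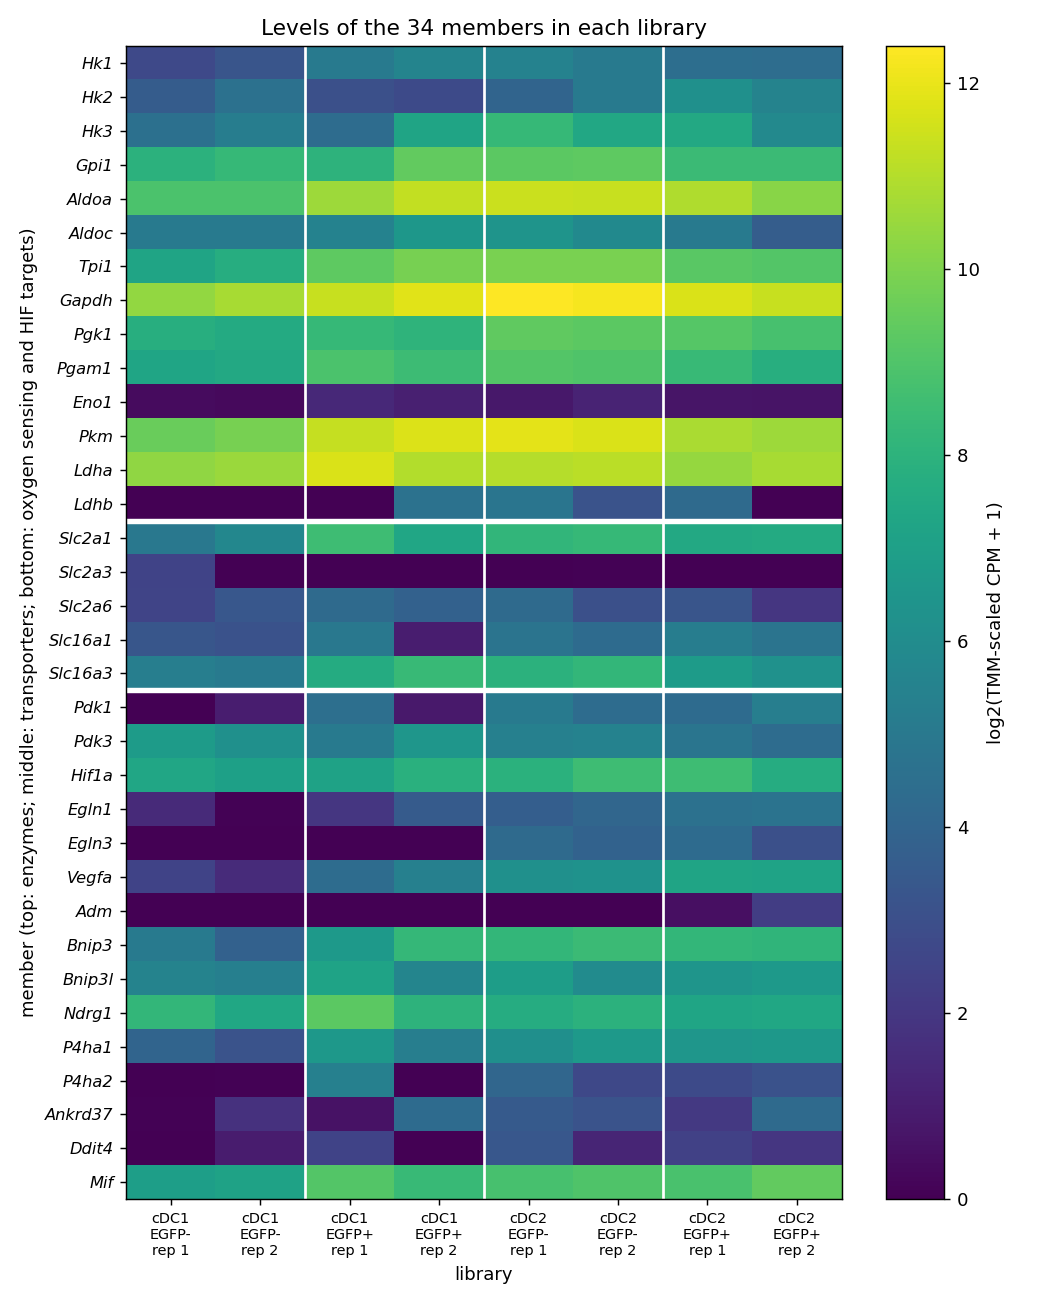
Levels of the 34 genes in each of the 8 libraries, as log2 of TMM-scaled CPM plus 1, in 3 blocks separated by white lines. The EGFP-negative cDC1 columns are darkest over most of the enzyme block, Hk2 is brightest in EGFP-positive cDC2, and Egln3 is at 0 in all 4 cDC1 libraries.

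Of the transporters, Slc16a3, the lactate exporter typical of glycolytic cells, was the 1 that passed a test. It stood at 38.7 and 32.7 CPM in EGFP-negative cDC1, 195 and 329 CPM in EGFP-positive cDC1, 246 and 292 CPM in EGFP-negative cDC2, and 109.8 and 77.1 CPM in EGFP-positive cDC2. EGFP-positive cDC1 and EGFP-negative cDC2 overlapped at the top, EGFP-positive cDC2 was apart below them, and EGFP-negative cDC1 was apart at the bottom. Between EGFP-negative subsets its mean was 7.54-fold lower in cDC1, a log2 fold change of −2.92 ± 0.40 (edgeR adjusted p = 0.0457, up to 0.317 when a library was left out). Slc2a1, the glucose importer that HIF raises, was at 29.8 and 52.9 CPM, 371 and 163 CPM, 288 and 316 CPM, and 180.5 and 189 CPM in the same groups. EGFP-negative cDC1 was again apart and lowest, while the 2 EGFP-positive cDC1 libraries spanned the range of the cDC2 libraries; the subset difference without EGFP was −2.87 ± 0.49 (edgeR adjusted p = 0.0775).

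Slc16a1, the monocarboxylate transporter of wider tissue range, was at 8.97 and 7.64 CPM in EGFP-negative cDC1, 29.9 and 0.983 CPM in EGFP-positive cDC1, 26.4 and 19.2 CPM in EGFP-negative cDC2, and 37.4 and 26.7 CPM in EGFP-positive cDC2. Here the EGFP-positive cDC1 replicates were the next to highest and the lowest of all libraries, so no order can be read for that group. Slc2a6, an intracellular glucose transporter of myeloid cells, was at 4.86 and 9.41 CPM, 18.5 and 13.5 CPM, 18.7 and 7.21 CPM, and 8.80 and 2.92 CPM. EGFP-positive cDC1 lay above EGFP-negative cDC1 and EGFP-positive cDC2 for this gene, and EGFP-negative cDC2 reached over both. Slc2a3, the high-affinity neuronal glucose transporter, had 100 reads in replicate 1 of EGFP-negative cDC1 (4.67 CPM), 1 read in replicate 2 of EGFP-negative cDC2 and 0 elsewhere. Per kilobase, Slc2a1 held 79.7% to 98.3% of the 3 glucose transporters and Slc16a3 70.6% to 99.6% of the 2 monocarboxylate transporters. Bsg, the accessory chain of both, which is outside the list, had a log2 fold change of −1.40 ± 0.31 between EGFP-negative subsets (edgeR adjusted p = 0.155).

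Among the HIF genes, Vegfa, the angiogenic growth factor gene, was graded over the 4 groups in another order than the enzymes. It was at 4.67 and 1.86 CPM in EGFP-negative cDC1, 19.6 and 40.7 CPM in EGFP-positive cDC1, 72.6 and 78.8 CPM in EGFP-negative cDC2, and 149.7 and 145 CPM in EGFP-positive cDC2. No 2 groups overlapped, and in both subsets the EGFP-positive libraries were the higher ones. Its log2 fold change in cDC1 against cDC2 was −4.53 ± 0.63 without EGFP (edgeR adjusted p = 0.0467, up to 0.251 with a library left out, EGFP-positive cDC2 libraries included). Over both fractions it was −3.40 ± 0.60 (edgeR adjusted p = 0.03, up to 0.134 with a library left out, the call being lost without either EGFP-negative library of each subset and without replicate 1 of EGFP-positive cDC2). In the comparison over both fractions it was the 1 member of 32 that passed, with 0 higher; of all genes 1.32% passed, 0.816% as higher and 0.500% as lower in cDC1. Between EGFP-positive subsets the difference was −2.29 ± 0.57 (edgeR adjusted p = 0.141), and with EGFP it was 3.20 ± 0.60 in cDC1 (adjusted p = 0.14) and 0.96 ± 0.55 in cDC2 (adjusted p = 1), both by edgeR.

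Egln3, a HIF prolyl hydroxylase that HIF itself induces, had 0 reads in all 4 cDC1 libraries and was at 18.4 and 13.8 CPM in EGFP-negative cDC2 and 19.4 and 7.28 CPM in EGFP-positive cDC2. Against 3 reads over the group, it was at least 230.2-fold lower in EGFP-negative cDC1, at least 165-fold lower in EGFP-positive cDC1 and at least 393-fold lower over both fractions (edgeR adjusted p = 0.215, 0.146 and 0.0619). Egln1, the hydroxylase that sets HIF stability in most cells, was at 1.78 and 0.0466 CPM in EGFP-negative cDC1, the second being 1 read, and at 2.84 and 10.9 CPM in EGFP-positive cDC1. In cDC2 it was at 12 and 16.3 CPM without EGFP and 23.8 and 25.0 CPM with it, above all cDC1 libraries. Its difference over both fractions was −2.88 ± 1.26 (edgeR adjusted p = 0.359). Hif1a, the regulated subunit of HIF, whose protein rather than mRNA responds to oxygen, was at 162 and 131 CPM, 141 and 237 CPM, 238 and 376 CPM, and 375 and 201 CPM in the same order of groups. EGFP-negative cDC1 lay below both cDC2 groups, EGFP-positive cDC1 reached from the level of the one to that of the others, and the widest difference between means was 2.10-fold.

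Bnip3 and Bnip3l, receptors that mark mitochondria for removal, differed in range. Bnip3 was at 32.3 and 13.6 CPM in EGFP-negative cDC1, 103 and 301 CPM in EGFP-positive cDC1, 292 and 348 CPM in EGFP-negative cDC2, and 294 and 280.4 CPM in EGFP-positive cDC2. EGFP-negative cDC1 was 14.0-fold lower than EGFP-negative cDC2 on average (−3.80 ± 0.64, edgeR adjusted p = 0.0771), while the 2 cDC2 groups overlapped. Bnip3l ran from 40.4 to 143 CPM, with its 2 lowest libraries those of EGFP-negative cDC1. Mif, a secreted cytokine that HIF induces, was at 122 and 139 CPM, 536 and 328 CPM, 445 and 509.7 CPM, and 454 and 694 CPM, again with EGFP-negative cDC1 apart and the other 3 groups overlapping. P4ha1, which with a partner chain hydroxylates collagen, was at 15.1 and 8.11 CPM in EGFP-negative cDC1 and 39.0 to 99.9 CPM in the other 6 libraries (−2.89 ± 0.59 between EGFP-negative subsets, edgeR adjusted p = 0.13).

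Pdk3 and Ndrg1 did not follow the block. Pdk3, which with Pdk1 holds back the entry of pyruvate into mitochondria, had group means of 93.3 ± 26.9 and 62.0 ± 41.4 CPM in cDC1 and 43.3 ± 2.06 and 23.5 ± 5.24 CPM in cDC2, without and with EGFP (SD, n = 2). It was the member with the largest positive difference between EGFP-negative subsets, 1.11 ± 0.56 (edgeR adjusted p = 0.584). Pdk1, the kinase that HIF induces, ran the other way: it had 21 reads in all in EGFP-negative cDC1 and stood at 19.0 to 38.6 CPM in the 4 cDC2 libraries, with EGFP-positive cDC1 split at 22 and 0.772 CPM. Ndrg1, a stress response gene, was at 296 and 169 CPM, 614 and 262 CPM, 202 and 251 CPM, and 154 and 165 CPM in cDC1 without and with EGFP and then in cDC2 without and with EGFP. EGFP-positive cDC1 thus lay above both cDC2 groups, and its replicate 1 was the highest library.

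The remaining HIF genes were low in most libraries and uneven between replicates. P4ha2, the second collagen hydroxylase chain, had 1 read in the 2 EGFP-negative cDC1 libraries and 41.2 and 0 CPM in the 2 of EGFP-positive cDC1, against 5.48 to 15.9 CPM in cDC2. Ankrd37, an ankyrin repeat gene, ranged from 0.0467 to 18.9 CPM, and Ddit4, an inhibitor of mTOR signalling, from 0 to 9.49 CPM, with both uneven within groups. Ankrd37 shares 406 exon bases with its neighbours Ufsp2 and Lrp2bp and Hk1 shares 157 with the antisense gene Hk1os; whether strand was used in counting is not given in the sources used here. Adm, a vasodilator peptide gene, had 8 and 75 reads in EGFP-positive cDC2 (0.416 and 3.71 CPM) and 0 in the other 6 libraries.

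**Figure D3:**
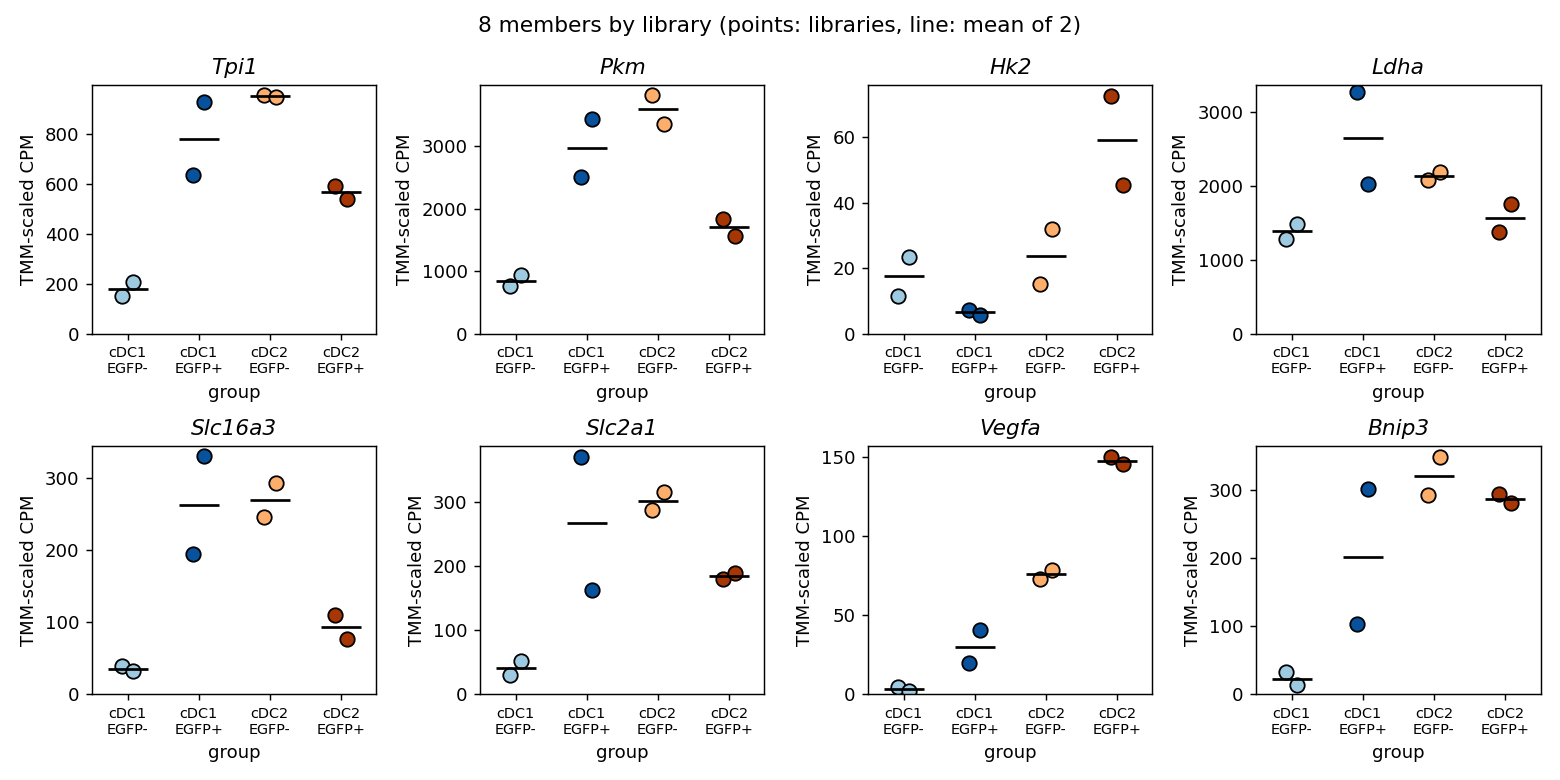
TMM-scaled CPM of 8 members in each library (points) with the mean of the 2 libraries of a group (line). Tpi1, Pkm and Slc16a3 are lowest in EGFP-negative cDC1 and higher in EGFP-negative than in EGFP-positive cDC2, Vegfa climbs from 1.86 to 149.7 CPM over 4 groups that do not overlap, and Hk2 is lowest in EGFP-positive cDC1.

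With EGFP, most members stood higher in cDC1, and most enzymes and transporters, but not the HIF genes, stood lower in cDC2. By edgeR 0 of 32 members passed the test in either subset. In cDC1 the members' median log2 fold change was 1.77, against −0.04 over all genes, with 29 of 32 above 0. By block it was 1.41 for enzymes, 1.93 for transporters and 2.43 for HIF genes. In cDC2 it was −0.64, against 0.08 over all genes, with 23 of 32 below 0, and by block −0.81, −0.93 and −0.01. With members at 0 reads set to the floor, the medians were 1.81 (31 members) and −0.64. No gene at all passed in either comparison (0%). At an unadjusted p under 0.05 there were 14 members in cDC1, against 12.7% of all genes, and 6 in cDC2, against 2.63%. DESeq2 called 14 members in cDC1 and 1 in cDC2, against 11.6% and 0.974% of all genes, and limma's voom with library weights 0 and 0, against 0% and 0.0176%. The smallest p-values in cDC1 belonged to Slc16a3 (2.88 ± 0.40, edgeR adjusted p = 0.0793), Tpi1 (2.12 ± 0.32, edgeR adjusted p = 0.0818) and Pkm (1.81 ± 0.30, edgeR adjusted p = 0.114). In cDC2 the smallest was again that of Slc16a3 (−1.52 ± 0.38, unadjusted p = 0.00435 and adjusted p = 1 by edgeR), the member that DESeq2 called there.

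Read by library, both EGFP-positive cDC1 libraries lay above both EGFP-negative ones for 19 of 32 members (59.4%), against 11.5% of all genes, and below them for 1, Hk2, against 24.0%. The 19 were 10 of 14 enzymes, 3 of 4 transporters and 6 of 14 HIF genes (Egln1, Vegfa, Bnip3, Bnip3l, P4ha1 and Mif). In cDC2, both EGFP-positive libraries lay below both EGFP-negative ones for 15 members (46.9%), against 19.2% of all genes, of which 11 were enzymes and 2 transporters. They lay above for 4 (Hk2, Slc16a1, Egln1 and Vegfa), against 22.6%. Higher with EGFP in cDC1 and lower with EGFP in cDC2 held together for 12 members (37.5%), against 2.68% of all genes: Hk1, Aldoa, Aldoc, Tpi1, Gapdh, Pgk1, Pgam1, Eno1, Pkm, Ldha, Slc2a1 and Slc16a3. That is 10 of 14 enzymes, 2 of 4 transporters and 0 of 14 HIF genes. Eno1, whose level cannot be read here, is among these enzymes and stays in the counts and medians of members throughout. The reverse held for 1 member, Hk2, against 6.21% of all genes. The test of this difference itself, the interaction of subset and EGFP, passed for 0 members and 0% of all genes by edgeR, with 17 members and 10.4% of all genes at an unadjusted p under 0.05. DESeq2 called 11 members and 6.21% of all genes, and voom 0 and 0%. Its smallest values were 4.40 ± 0.55 for Slc16a3 (edgeR adjusted p = 0.141), 2.89 ± 0.41 for Pkm and 2.86 ± 0.44 for Tpi1 (edgeR adjusted p = 0.154 for both), and the members' median was 2.38 against −0.20 over all genes. Without replicate 1 or replicate 2 of EGFP-positive cDC1, edgeR called 10 and 8 members in the interaction, against 4.15% and 5.35% of all genes.

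**Figure D4:**
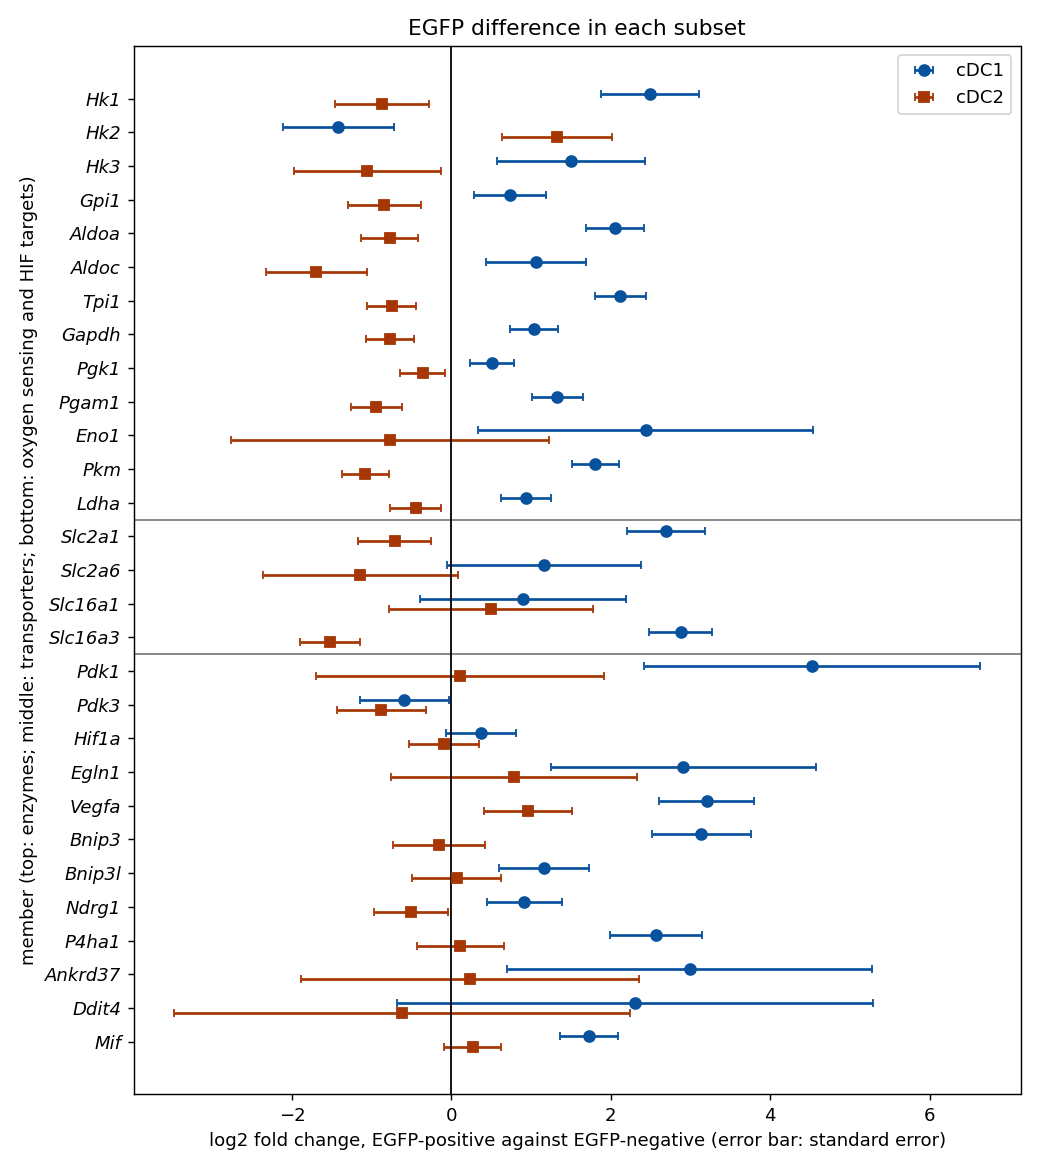
Log2 fold change of EGFP-positive against EGFP-negative cells in cDC1 (circles) and cDC2 (squares) for 29 members with more than 3 reads in every group; error bars are standard errors. Enzymes and Slc16a3 lie right of 0 in cDC1 and left of 0 in cDC2, Hk2 lies the other way, and the HIF genes lie on both sides of 0 in cDC2; no single difference passed the test.

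The cDC1 comparison rests on 2 libraries that were unlike each other. Without replicate 1 of EGFP-positive cDC1, edgeR called 9 members with EGFP in cDC1 (6.15% of genes), and without replicate 2 it called 12 (8.41%); the lone library was then assumed to vary like the other groups. Aldoa, Bnip3, Pkm, Slc16a3, Slc2a1, Tpi1 and Vegfa passed in both fits. The 18 macrophage and monocyte markers summed to 523 CPM in replicate 1 and 13678 CPM in replicate 2, against 2469 and 3649 CPM without EGFP. Single markers differed in direction: Lyz2 was at 290 and 8773 CPM against 1705 and 2276 CPM without EGFP, and Adgre1 at 41.7 and 0.421 CPM against 5.56 and 3.73 CPM. The cDC1 markers summed to 3875 and 4427 CPM with EGFP against 8508 and 7229 CPM without. Of the 12, 8 were lower without overlap, against 24.0% of all genes. Of the 18 macrophage and monocyte markers, 1 lay above the EGFP-negative cDC1 libraries in both, against 11.5% of all genes. The part of these markers was not tested. The part of the mature dendritic cell markers, at 853 and 11111 CPM in these libraries against 566 and 336 CPM without EGFP, and of the stromal markers, at 811 and 254 CPM against 11.2 and 18.1 CPM, was not tested. In cDC2, the macrophage sum was 50726 and 28737 CPM with EGFP against 57924 and 47709 CPM without. Of the 18 markers, 4 were lower without overlap, against 19.2% of all genes, a share near that of the markers. The part of this sum was not tested either.

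Between EGFP-positive subsets 0 of 32 members passed by edgeR, and 0.228% of all genes did, 0.114% in each direction. At an unadjusted p under 0.05 there were 10 members, against 15.9% of all genes. DESeq2 called 5 members, Egln3, Hk2, Pkm, Slc16a3 and Vegfa, but also 13.8% of all genes, a share near that of the members; voom called 0, against 0.0965%. Without replicate 1 or 2 of EGFP-positive cDC1, edgeR called 4 and 3 members, with Egln3 in both fits, but also 6.83% and 10.2% of all genes, so that these counts do not stand apart from the background. The median log2 fold change of cDC1 against cDC2 was 0.45 for enzymes, 0.99 for transporters and −0.47 for HIF genes, against −0.30 over all genes; the blocks were not tested against each other. Both cDC1 libraries lay above both cDC2 libraries for 11 members (34.4%), against 13.7% of all genes: 7 enzymes, Slc2a6, Slc16a3, Pdk3 and Ndrg1. They lay below for 5 (15.6%), against 33.2% of all genes: Hk2, Pgk1, Egln1, Egln3 and Vegfa. The comparisons above share groups, so their differences are not independent: an EGFP-negative cDC1 library that is low moves both the subset and the EGFP comparison.

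Other genes of the pathway gave 87 names, of which 69 were tested. Hilpda, a lipid droplet protein that HIF induces, was lower in EGFP-negative cDC1, at 28.5 and 10.9 CPM against 795 and 644 CPM in EGFP-negative cDC2 (−5.19 ± 0.60, edgeR adjusted p = 0.029). It was the 1 gene of 69 that passed there, against 0.360% of all genes. At an unadjusted p under 0.05 there were 14, against 9.58% of all genes. Over both fractions 0.500% of all genes passed as lower in cDC1 and 0.816% as higher. Of the 69, Hilpda was lower in cDC1 (−4.08 ± 0.58, edgeR adjusted p = 0.0111), and 2 genes passed as higher. These were Taldo1, transaldolase of the pentose phosphate branch, at 189 to 299 CPM in cDC2 and 553 to 1310.0 CPM in cDC1 (1.65 ± 0.29, edgeR adjusted p = 0.03), and Gpd2, the mitochondrial glycerol phosphate dehydrogenase (1.82 ± 0.35, edgeR adjusted p = 0.0423). The subset order of these 2 was the opposite of that of most members. With EGFP, edgeR called 0 of 69 in cDC1 and 0 in cDC2. At an unadjusted p under 0.05 there were 17 and 2, against 12.7% and 2.63% of all genes. In the interaction edgeR called 0, with 11 at an unadjusted p under 0.05, against 10.4% of all genes. Between EGFP-positive subsets it called 0, with 12 at that unadjusted p, against 15.9% of all genes. In EGFP-positive cDC1 Hilpda was at 94.8 and 115 CPM, between the EGFP-negative cDC1 and the cDC2 libraries. The HIF-induced repressor gene Mxi1 was at 0.0438 and 0.0702 CPM there, against 2.33 to 57.0 CPM in the other 6 libraries (edgeR adjusted p = 0.137 against EGFP-negative cDC1).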

How the data were processed

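The authors deposited raw read counts per gene for 8 libraries, whole numbers for 24369 gene symbols; columns were tied to samples through their names. The labels' protocols cite a low-input cDNA method and a KAPA kit. Trimmomatic 0.39, STAR 2.7.5c, Cufflinks 2.2.1 and the mm10 build are named in the submitters' processing notes. Which counter and annotation were used, and whether strand was, is not given in the sources used here. No 2 replicates were 1 library deposited again, since a chi-square test of their counts gave 119 to 503.3 per degree of freedom. Floors of 3 reads cover counting error only, as PCR copies cannot be told from molecules here.

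Tests were run on the counts with edgeR 4.0.16 in R 4.3.3. The steps were filterByExpr with groups (11394 genes kept), TMM, robust glmQLFit, glmQLFTest and Benjamini-Hochberg adjustment over all genes, with a threshold of 0.05. A model of the 4 group means gave 5 comparisons, and an additive model of subset and EGFP the pooled one. The common dispersion was 1.28. Each standard error is the fold change divided by the root of its F. Alternatives were DESeq2 1.42.0, RLE scaling, other filters, no robust estimation, voom with library weights in limma 3.58.1, removal of Rn45s, a replicate block, the compared libraries alone, a 4-group model for the pooled comparison and leaving out each library. Gene lengths come from GENCODE M21 and promoters from RefSeq, both GRCm38. The main edgeR fit was also run on simulated counts, and its calls were read there for the comparison between EGFP-negative subsets only. No simulation covered the alternatives or the other steps.

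The members, the other lists and the tests were chosen with earlier results of these data known. Values in every library are given for members past the threshold and for the 4 most abundant of each block, with all transporters. Hk1, Hk2, Egln1, Egln3, P4ha1 and other members given by library were added after their values were seen. Of the other pathway genes, at most 2 of smallest p are named in a comparison, and Gpd2, which also passed, was added.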

Additional observations from a re-analysis of the deposited data

How the results depend on the processing

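The counts of members called moved with the method. Between EGFP-negative subsets the 4 calls became 18 by DESeq2, 11 without a low-count filter, 13 by voom and 12 with the compared libraries alone. There were 0 without robust estimation and 0 with the replicate block. In the order given, these fits called 7.28%, 0.807%, 4.13%, 2.89%, 0.219% and 0.0263% of all genes. RLE scaling, a minimum of 10 CPM in 2 libraries and removal of Rn45s gave 5, 4 and 5. They called 0.412%, 0.542% and 0.377% of all genes. Leaving out 1 library gave 0 to 16: 0 without either library of the 2 compared groups, 15 and 16 without replicate 1 or 2 of EGFP-positive cDC1 (3.75% and 3.31% of all genes). Without both of these, a choice made after seeing the data, there were 13 between EGFP-negative subsets (3.55% of all genes) and 0 with EGFP in cDC2 (0%). Between EGFP-positive subsets the 0 calls became 5 by DESeq2 and 0 to 4 with a library left out. With EGFP in cDC1 they became 14 by DESeq2, 7 without the filter (0.411% of all genes) and 0 to 12 with a library left out; with EGFP in cDC2, 1 by DESeq2 and 0 to 0. The interaction gave 11 by DESeq2, 4 without the filter (0.209%) and 0 to 10. Over both fractions the 1 call became 6 by DESeq2, 3 without the filter, 13 by voom, 4 with the 4-group model, 0 with the replicate block and 0 to 4 with a library left out; in the first 5 of these fits 10.2%, 1.70%, 7.42%, 2.41% and 0.720% of all genes were called.

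No member's direction named as called reversed in any of these fits: with a library left out, the log2 fold change between EGFP-negative subsets was −2.25 to −1.94 for Pkm, −3.05 to −2.79 for Slc16a3, −2.66 to −2.20 for Tpi1 and −5.34 to −4.02 for Vegfa. The members' median between EGFP-positive subsets changed sign, from 0.21 to −0.16 by voom and to −0.01 without replicate 2 of EGFP-positive cDC1. RLE scaling moved the median of all genes in the interaction from −0.20 to −0.06, and the members' median from 2.38 to 2.56. With the replicate block, edgeR's adjusted p was 0.101 to 0.13 for the 4 genes called between EGFP-negative subsets and 0.0645 for Vegfa over both fractions. The titles carry a code that follows the replicate number in all 4 groups, but the labels do not say what it marks, and deviations of same-numbered libraries correlated at −0.224 to 0.0408 over 6 pairs of groups, so the numbers were not taken to pair the libraries. With 2 libraries a group and a dispersion of 1.28, large differences could also be missed, and genes under 10 CPM were uneven between replicates.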
